A study of Mus musculus with 5 samples.

Results

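The genes of the proteasome were compared between cardiac atria of mice heterozygous for an E990G change in MRC2, a collagen receptor of the cell surface (het), and wild-type atria (WT). A gene was taken as a member when its symbol in the authors' deposited table of het against WT began with Psm, a letter from a to g and a number, with pseudogenes left out. This gave 50 of the 14927 genes in that table. They comprise 14 genes of the standard 20S core, 17 of the 19S cap, 3 of the immunoproteasome, the germ cell gene Psma8, 5 activators, the inhibitor Psmf1 and 7 assembly chaperones. Psmc3ip and Psme3ip1 match the symbol pattern, but their products are not subunits.

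The series describes 7 het and 8 WT mice aged 4 to 10 months. Analysed here were 3 het libraries (replicates 5, 6 and 7) and 2 WT libraries (replicates 7 and 8), all of batch 2, each made as stranded polyA RNA sequencing of the snap-frozen atrial pair. No treatment is named for either group. How the allele was made, its genetic background and the sex of the animals are not given in the sources used here.

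The proteasome degrades proteins that carry ubiquitin chains. Its 20S core is a barrel of alpha and beta rings, and 3 of the beta subunits cut peptide bonds: beta5 (Psmb5), beta1 (Psmb6) and beta2 (Psmb7). The 19S cap binds ubiquitin, removes it and threads the substrate into the core with a ring of ATPases. In cells exposed to interferon gamma the catalytic subunits are replaced in new particles by beta5i (Psmb8), beta1i (Psmb9) and beta2i (Psmb10), which favours peptides for antigen presentation. In heart muscle the proteasome turns over sarcomere and signalling proteins.

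Total expected counts ran from 21410811 to 28353091 in het and from 17784601 to 24445791 in WT libraries, and the 50 genes took 0.296% to 0.308% of them in het and 0.338% to 0.356% in WT. Mitochondrially encoded genes took 12.98% to 17.7% in het and 14.3% to 15.05% in WT. Atrial markers were high in every library, with Nppa at 38975 to 45538 TPM (a level corrected for transcript length and library size) in het and 49415 to 62536 TPM in WT. WT 7 held 938 counts of the Y-linked gene Ddx3y, the other libraries at most 3, so sex is not balanced between the groups. The labels do not say more of the replicates than that they are separate samples, so p-values measure the spread between these samples. In bulk tissue, fewer cells of a type and less RNA per cell cannot be told apart.

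Of the proteasome genes, 4 were lower in het atria and 0 were higher. The 4 were Psmb5 and Psmb6, which encode the beta5 and beta1 proteases of the standard core, Psmb4, a structural beta subunit, and Psmc5, an ATPase of the 19S base. Each fell by 0.47 to 0.56 on the log2 scale. The call was an adjusted p under 0.05 in edgeR's quasi-likelihood test, Benjamini-Hochberg adjusted over 16412 genes. In all tested genes the same rule called 2.66% lower and 2.99% higher, against 8.0% and 0 of these 50 genes. That balance over all genes, 490 higher and 436 lower, was 795 and 391 when scaled by library size alone, and 327 and 568 by upper quartile. At an unadjusted p under 0.05, 20 of the 50 were lower (40.0%, against 11.9% of all tested genes) and 0 were higher. DESeq2 called 11 of the 50 lower (22.0%, against 4.75% of all tested genes) and 0 higher (5.28% of all tested genes). With length and GC trends removed all 4 calls were lost and the folds shrank to between -0.26 and -0.13. Without het 5, het 6, het 7 or WT 7 all 4 calls were lost too, while over all fits with 1 library left out the folds lay between -0.61 and -0.42. Without WT 8 they were -0.50 (Psmb4), -0.57 (Psmb5), -0.59 (Psmb6) and -0.42 (Psmc5). In that fit WT 7, the library with Ddx3y counts, stood alone for WT, so genotype and sex cannot be told apart.

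Psmb5, the chymotrypsin-like protease beta5, stood at 100.4, 107 and 123 TPM in het 5, 6 and 7, against 143 and 139 TPM in WT 7 and 8. All 3 het libraries were below both WT libraries. Its log2 fold change in counts, het over WT, was -0.56 (SE 0.12, edgeR adjusted p = 0.0305), and -0.15 with length and GC trends removed. Psmb6, the caspase-like protease beta1, stood at 199, 202 and 215 TPM in het 5, 6 and 7, against 265 and 255 TPM in WT 7 and 8. The groups again did not overlap, and het 7 was the nearest to WT for both genes. The log2 fold change of Psmb6 was -0.55 (SE 0.13, edgeR adjusted p = 0.0321), and -0.13 with both trends removed.

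Psmb7, the trypsin-like protease beta2, differed less. It had 132, 129 and 136 TPM in het 5, 6 and 7, against 139 and 140.3 TPM in WT 7 and 8, with a log2 fold change of -0.26 (SE 0.12, edgeR adjusted p = 0.220). The het libraries were again all below WT, by a narrower margin. Whether Psmb7 differed from Psmb5 and Psmb6 in its response was not tested.

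**Figure D1:**
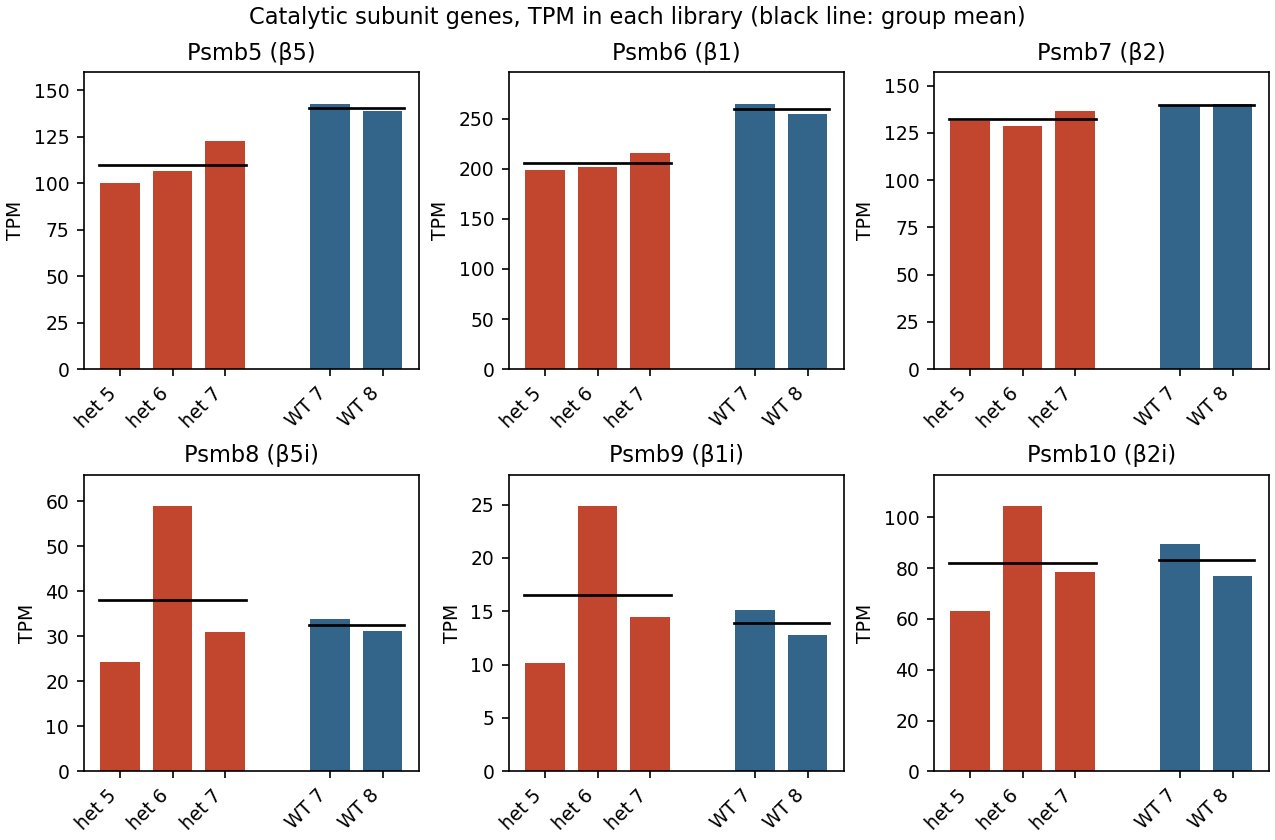
Level in TPM (linear axis from 0) of the standard catalytic genes and their immunoproteasome counterparts in each library, with group means as lines. Psmb5 and Psmb6 lie lower in all 3 het libraries than in both WT libraries, and Psmb8, Psmb9 and Psmb10 are highest in het 6 and lowest in het 5.

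The stretches that end just before the annotated transcription start of these genes are shown for the 4 genes called lower and the 3 immunoproteasome genes, because motifs of known proteasome regulators were searched in them. They are from RefSeq, build GRCm38.p6, read 5′ to 3′ on the gene's strand, with 80 bases of each. Capitals mark matches to the antioxidant response element core TGACNNNGC, which NRF1 (encoded by Nfe2l1), the main activator of proteasome genes, and NRF2 can bind, to the core of the interferon-stimulated response element, or to CCAAT, on either strand. The stretches are chr14:54617996-54618075 (minus strand, Psmb5), chr11:70525277-70525356 (plus, Psmb6), chr3:94886959-94887038 (minus, Psmb4), chr11:106256105-106256184 (plus, Psmc5), chr17:34198115-34198194 (plus, Psmb8), chr17:34187331-34187410 (minus, Psmb9) and chr8:105938393-105938472 (minus, Psmb10).
Psmb5: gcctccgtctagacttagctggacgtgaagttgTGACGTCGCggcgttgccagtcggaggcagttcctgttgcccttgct
Psmb6: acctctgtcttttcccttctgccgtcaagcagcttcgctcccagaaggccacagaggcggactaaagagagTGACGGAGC
Psmb4: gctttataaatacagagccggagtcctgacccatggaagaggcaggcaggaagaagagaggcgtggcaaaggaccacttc
Psmc5: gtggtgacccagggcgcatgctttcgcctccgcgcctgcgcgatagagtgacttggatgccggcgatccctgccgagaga
Psmb8: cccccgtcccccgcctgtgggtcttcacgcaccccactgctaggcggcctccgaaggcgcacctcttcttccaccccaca
Psmb9: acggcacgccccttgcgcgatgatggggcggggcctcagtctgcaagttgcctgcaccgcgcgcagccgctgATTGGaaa
Psmb10: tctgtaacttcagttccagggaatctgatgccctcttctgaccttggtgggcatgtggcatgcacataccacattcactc

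A promoter entry was found for 42 of the 50 genes. Over the 250 bases before the start, TGACNNNGC occurred in 5 of the 42 (11.9%), against 11.5% of 27025 genes with an entry. Those 5 were Psmb5, with the match 47 to 39 bases before the start, Psmb6, with the match 9 to 1 bases before it, and Psmc6, Psmd9 and Psmd12, the last 2 named after their values were seen. Of the 4 genes called lower, Psmb5 and Psmb6 carry these letters, and no match was found for Psmb4 and Psmc5. The interferon-stimulated core occurred in 3 of the 42 (7.14%, against 3.46% of all) and in none of the 3 immunoproteasome genes. CCAAT occurred in 15 of the 42 (35.7%, against 37.5% of all). A match is a description of letters only.

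All 14 standard genes of the 20S core lay below WT on the count scale. Their log2 fold changes ran between -0.56 and -0.17, with a median of -0.32, against -0.001 over all tested genes, of which 50.1% were below 0. Of the 14, 3 were called lower (21.4%) and 0 higher. In TMM-scaled library shares (CPM), 11 of the 14 had all het libraries below both WT libraries, against 21.1% of all tested genes. Summed over the 14 genes, the level was 1476, 1515 and 1558 TPM in het 5, 6 and 7, against 1736 and 1747 TPM in WT 7 and 8. The het sums did not reach the WT sums.

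Within the core, the beta ring stood lower than the alpha ring. The 4 structural beta genes had a median log2 fold change of -0.46 and the 3 catalytic ones of -0.55, against -0.21 for the 7 alpha genes. With length and GC trends removed these medians were -0.17, -0.13 and -0.12, and the difference between the rings was not tested. Psmb4, the beta7 subunit, had 131, 146 and 153 TPM in het 5, 6 and 7, against 195 and 176 TPM in WT 7 and 8, and fell by 0.50 on the log2 scale (SE 0.12, edgeR adjusted p = 0.0362). Psmb1, the beta6 subunit and the lowest of the structural beta genes in level, had 62.9, 54.8 and 61.2 TPM in het, against 65.7 and 65.0 TPM in WT. Its groups did not overlap either, but its log2 fold change of -0.29 missed the threshold (edgeR adjusted p = 0.191). DESeq2 also called the structural beta genes Psmb2 and Psmb3 lower (DESeq2 adjusted p = 0.0299 and 0.0317). edgeR called no alpha gene, and DESeq2 called 1 of 7 lower (14.3%, against 4.75% of all tested genes). This was Psma7 (alpha4, log2 fold change -0.44, DESeq2 adjusted p = 0.0162). Psma6 (alpha1), the highest of the alpha genes in level, had 171, 174 and 166 TPM in het and 161 and 184 TPM in WT, so the groups overlapped. Psma2 (alpha2), the lowest, had 25.9, 29.6 and 26.4 TPM in het and 28.6 and 28.4 TPM in WT, with a log2 fold change of -0.22 (edgeR adjusted p = 0.321). Psma8, the alpha subunit of the testis proteasome, was near the bottom of the range, at 0.47 to 0.93 TPM in het and 0.54 to 1.62 TPM in WT.

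None of the immunoproteasome genes was called. Psmb8, Psmb9 and Psmb10 had log2 fold changes of 0.02, -0.006 and -0.26. Psmb8 (beta5i) had 24.4, 58.9 and 31.1 TPM in het 5, 6 and 7, against 34.0 and 31.2 TPM in WT 7 and 8. Psmb9 (beta1i) had 10.2, 24.8 and 14.4 TPM in het and 15.1 and 12.8 TPM in WT. Psmb10 (beta2i) had 63.0, 104.4 and 78.6 TPM in het and 89.6 and 76.9 TPM in WT. For all 3 genes het 6 was the highest library and het 5 the lowest, with the WT libraries between them. Without het 6 the log2 fold changes were -0.41, -0.49 and -0.47 (edgeR adjusted p = 0.196, 0.199 and 0.131), so that of Psmb8 turned negative. Its value of 0.02 over all libraries had an SE of 0.37. The sign of Psmb8 turned in other fits too, such as upper-quartile scaling (-0.027) and limma-voom (-0.074). With length and GC trends removed they were 0.41, 0.29 and 0.23, none called.

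The share of the immunoproteasome form in each catalytic pair compares genes within a library. Psmb8 made up 19.5%, 35.5% and 20.2% of Psmb8 and Psmb5 TPM together in het 5, 6 and 7, against 19.2% and 18.3% in WT 7 and 8. The difference was 6.31 percentage points, with an exact two-sided permutation p of 0.2, the smallest that 3 against 2 libraries allow (0.6 after Benjamini-Hochberg adjustment over 3 pairs). All 3 het libraries lay above WT, 2 of them by little: without het 6 the het mean was 19.9%. For Psmb9 in its pair with Psmb6 the difference was 2.29 percentage points (exact permutation p = 0.4, adjusted 0.6), against 0.49 without het 6 and 4.21 on expected counts. For Psmb10 in its pair with Psmb7 it was 0.64 (exact permutation p = 1.0, adjusted 1.0), and its sign turned on expected counts (-0.04) and without het 6 (-2.79) or WT 8 (-1.23).

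Most of the listed genes that interferon induces were highest in het 6. Of 15 genes of antigen processing and interferon response, 14 had their highest TPM in het 6, and their sum was 1255, 3079 and 1531 TPM in het 5, 6 and 7, against 1363 and 1570 TPM in WT 7 and 8. The transporter gene Tap1, which shares its promoter region with Psmb9, had 25.9 TPM in het 6 and at most 9.48 TPM in the other libraries. Only Erap1, a peptide-trimming aminopeptidase, was called higher by edgeR (2.99% of all tested genes were), with a log2 fold change of 0.61, and 0.19 with length and GC trends removed. Leukocyte markers summed to 481, 641 and 458 TPM in het 5, 6 and 7, against 356 and 375 TPM in WT 7 and 8. Of those 18 markers, 16 were highest in het 6, none was at 0 in all libraries, and Adgre1 and Cd163, both macrophage markers, were called higher among 16 tested (2.99% of all tested genes were), with log2 fold changes of 1.14 and 1.03. Both trends taken out, these were 1.02 and 0.81. The macrophage markers Cd68, C1qa and C1qb had 0.096, 0.095 and 0.063, not called, and 0.39, 0.55 and 0.46 with both trends removed. The median of the leukocyte list was 0.53 in both fits. Of the 50 proteasome genes, 8 were highest in het 6, and the share over all tested genes was not counted. The part of leukocytes or of interferon in the immunoproteasome values was not tested.

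**Figure D2:**
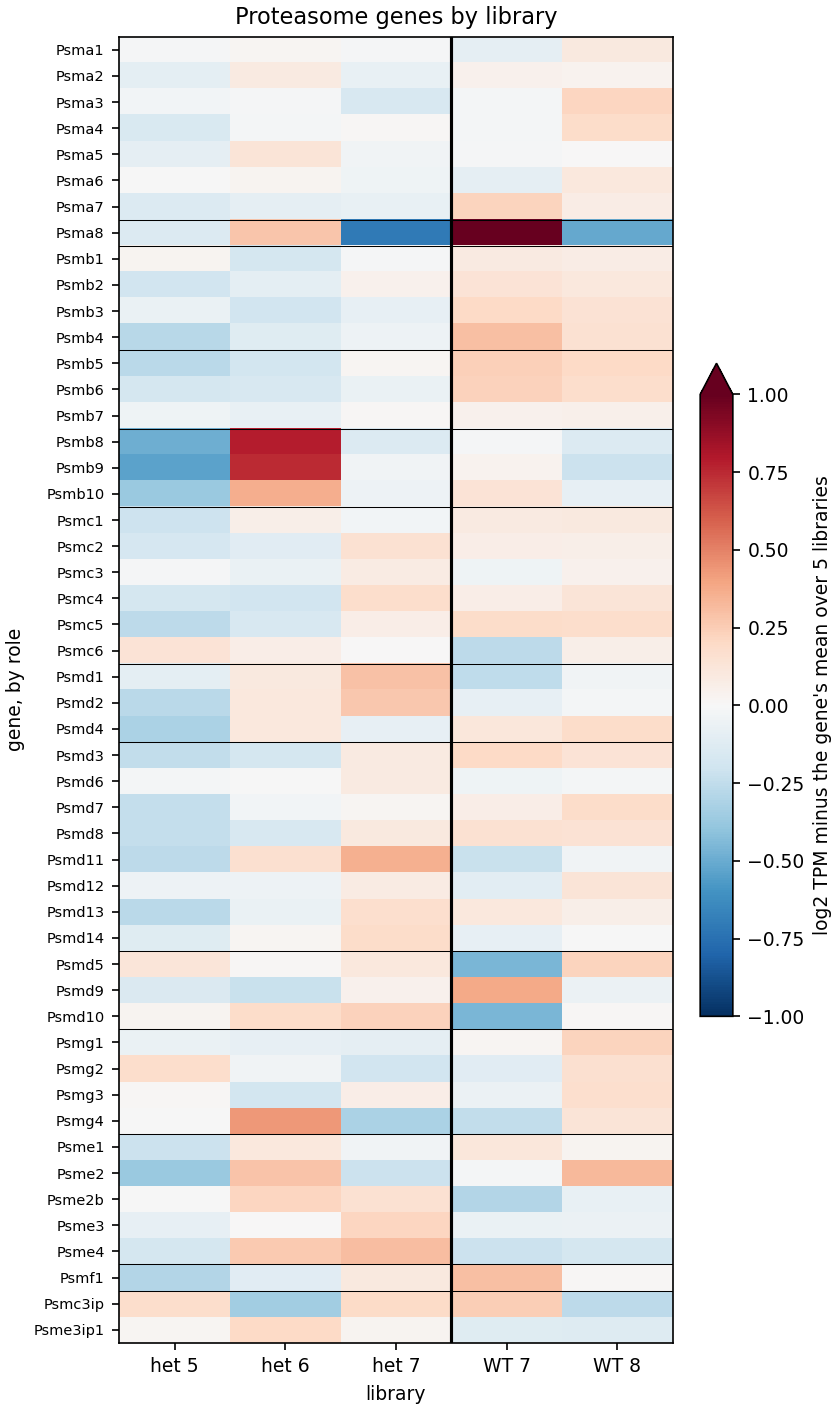
Level of each proteasome gene in each library as log2 TPM minus the gene's mean over the 5 libraries, ordered by role, with het libraries on the left. The immunoproteasome rows are high in het 6, while the 7 rows of the standard beta ring are lower in all 3 het libraries than in both WT libraries. Psma8 in WT 7 lies beyond the end of the colour scale.

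Among the activators, which open the core's gate, Psme1 and Psme2 encode the interferon-inducible PA28 ring. Psme2, the highest of the 5 in level, had 66.9, 105.9 and 74.7 TPM in het 5, 6 and 7, against 85.8 and 108 TPM in WT 7 and 8. The groups overlapped in TPM, and its log2 fold change of -0.32 was not called (edgeR adjusted p = 0.147). Psme2b, a retrogene copy of Psme2 and the lowest, had 5.33, 6.18 and 5.94 TPM in het and 4.34 and 5.07 TPM in WT. Its split of reads with Psme2 is uncertain. No activator was called, and the 5 log2 fold changes ran from -0.32 to 0.16.

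The 19S cap held 1 lower call in 17 genes (5.88%, against 2.66% of all tested genes). Of the 17, 14 had a negative log2 fold change, with a median of -0.27. In CPM 11 of the 17 had all het libraries below both WT libraries (64.7%, against 21.1% of all tested genes), and in TPM 6 did (35.3%, against 11.2%). Psmc5 (Rpt6), an ATPase of the base, had 67.5, 72.2 and 84.7 TPM in het 5, 6 and 7, against 91.7 and 91.4 TPM in WT 7 and 8. It fell by 0.47 on the log2 scale (SE 0.12, edgeR adjusted p = 0.0439). This call was also lost with library size alone as scaling (adjusted p = 0.0524), with low-count genes kept (0.0504) and in limma-voom (0.0576). The other ATPases were not called. Psmc3 (Rpt5), the highest in level, had 224, 216 and 239 TPM in het and 220 and 233 TPM in WT, and Psmc6 (Rpt4), the lowest, had 52.3, 49.9 and 47.7 TPM in het and 39.6 and 49.7 TPM in WT. Both overlapped between groups in TPM.

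Of the non-ATPase base subunits, Psmd4 (Rpn10), a ubiquitin receptor and the highest in level, had 63.5, 85.1 and 74.7 TPM in het 5, 6 and 7, against 85.6 and 90.2 TPM in WT 7 and 8. Its log2 fold change was -0.43 (edgeR adjusted p = 0.0635), and DESeq2 called it lower (DESeq2 adjusted p = 0.0309). Psmd1 (Rpn2), a scaffold and the lowest of these 3, had 33.9, 38.8 and 44.6 TPM in het and 30.4 and 35.4 TPM in WT, with a log2 fold change of 0.07.

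Of the 8 genes of the lid, which holds the deubiquitinase Psmd14, edgeR called 0, and DESeq2 called 3 lower (37.5%, against 4.75% of all tested genes). These were Psmd3, Psmd8 and Psmd13 (DESeq2 adjusted p = 0.0163, 0.0392 and 0.0462). Psmd3 (Rpn3) had 49.6, 52.0 and 62.3 TPM in het 5, 6 and 7, against 67.4 and 64.4 TPM in WT 7 and 8, with a log2 fold change of -0.44 (edgeR adjusted p = 0.0590). All het libraries were below both WT libraries. Psmd7 (Rpn8), the highest lid gene in level, had 66.2, 76.7 and 79.2 TPM in het and 81.7 and 88.9 TPM in WT (log2 fold change -0.37, edgeR adjusted p = 0.0941). Psmd11 (Rpn6), the lowest, had 21.4, 28.6 and 32.8 TPM in het and 22.0 and 25.0 TPM in WT, and overlapped. Summed over the 17 genes, the 19S level was 1031, 1117 and 1225 TPM in het 5, 6 and 7, against 1163 and 1217 TPM in WT 7 and 8. These sums overlapped, with het 7 above both WT libraries. In CPM they did not: 1373, 1413 and 1479 in het 5, 6 and 7, against 1570 and 1784 in WT 7 and 8.

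The 7 assembly chaperones were not called in either direction. Psmg1 (PAC1), which helps to build the alpha ring, had 22.3, 22.1 and 22.0 TPM in het 5, 6 and 7, against 23.6 and 27.3 TPM in WT 7 and 8 (log2 fold change -0.41, edgeR adjusted p = 0.118). Psmg3 (PAC3), the lowest of the 4 chaperones of the core, had 10.6, 9.28 and 11.04 TPM in het and 10.1 and 11.8 TPM in WT. Of the 3 chaperones of the base, Psmd10 (gankyrin), the highest, had 16.7, 18.7 and 19.4 TPM in het and 12.02 and 16.6 TPM in WT, and Psmd5, the lowest, had 5.66, 5.24 and 5.59 TPM in het and 3.79 and 6.09 TPM in WT. Their log2 fold changes of 0.18 and 0.20 turned negative without WT 7, and that of Psmd5 also with length and GC trends removed (-0.059). Psmf1 (PI31), the inhibitor, had 6.68, 7.57 and 8.73 TPM in het and 10.1 and 8.23 TPM in WT, and overlapped.

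**Figure D3:**
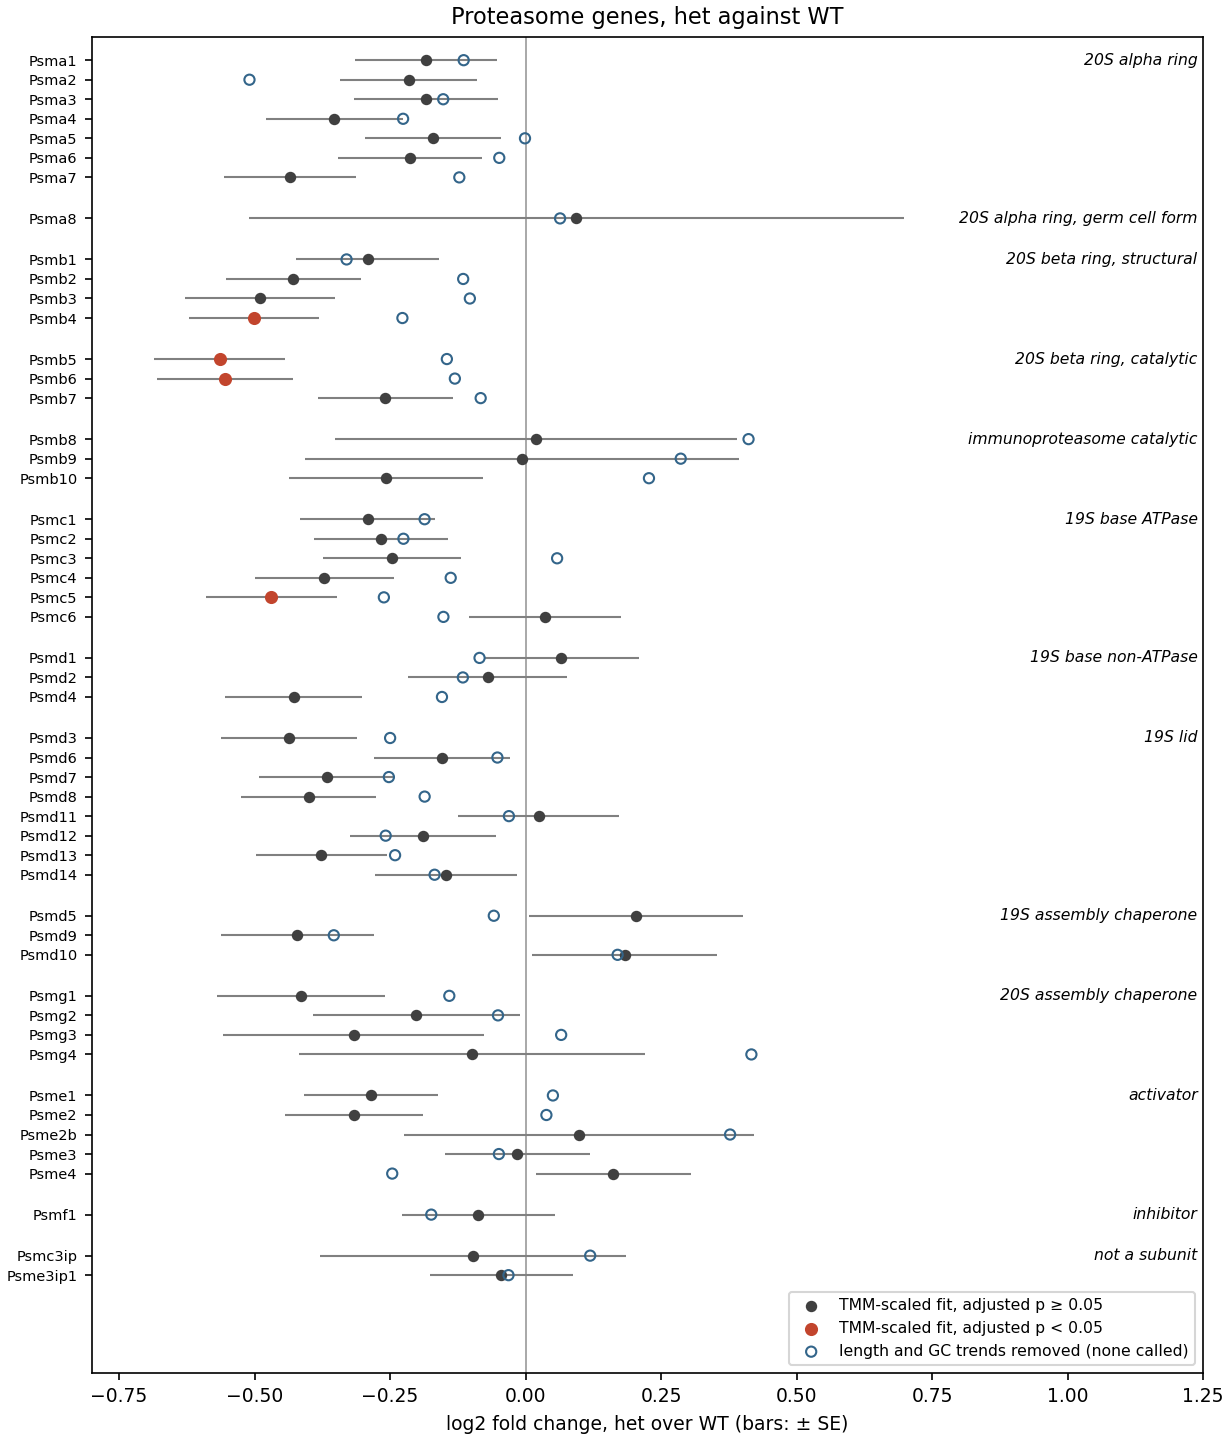
Log2 fold change, het over WT, of the 50 genes grouped by role, with the SE of the TMM-scaled edgeR fit as bars and the fit with length and GC trends removed as open circles. Red points are the 4 genes called lower, and none of the open circles is called.

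The choice of unit changed how many genes separated the groups. In CPM 27 of the 50 genes had all het libraries below both WT libraries and 0 had them above, where both directions hold 21.1% of all tested genes. In TPM 15 were below and 5 above, against 11.2% and 27.7% of all tested genes. Psmd6, a lid gene named after its values were seen, was below in CPM (44.6, 41.5 and 42.4 in het, against 44.8 and 50.6 in WT) and above in TPM (44.2, 44.6 and 47.7 in het, against 43.6 and 44.1 in WT).

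Transcript length moved with these fold changes. Over the 50 genes the log2 fold change rose with length, with a Spearman rho of 0.41, and over all 16412 tested genes it was 0.45. In the authors' deposited table rho over the 50 genes was -0.13. These points share the same 5 libraries. The 30 genes under 1400 bases had a median log2 fold change of -0.27, and the 20 longer ones of -0.12. With length and GC trends removed the medians were -0.13 for the 20S core, -0.17 for the 19S cap and 0.29 for the immunoproteasome, and 38 of the 50 genes were below 0. No proteasome gene was called in that fit, which called 0.0244% of all tested genes higher and 0.00609% lower. Over the 50 genes rho then was -0.45. The fragment length implied by the effective lengths was 376, 429 and 394 bases in het 5, 6 and 7, against 342 and 411 in WT 7 and 8, and did not separate the groups. None of the 4 calls held with these trends removed. Few calls of any gene did, so this loss does not measure the part of length in the 4, which was not tested.

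**Figure D4:**
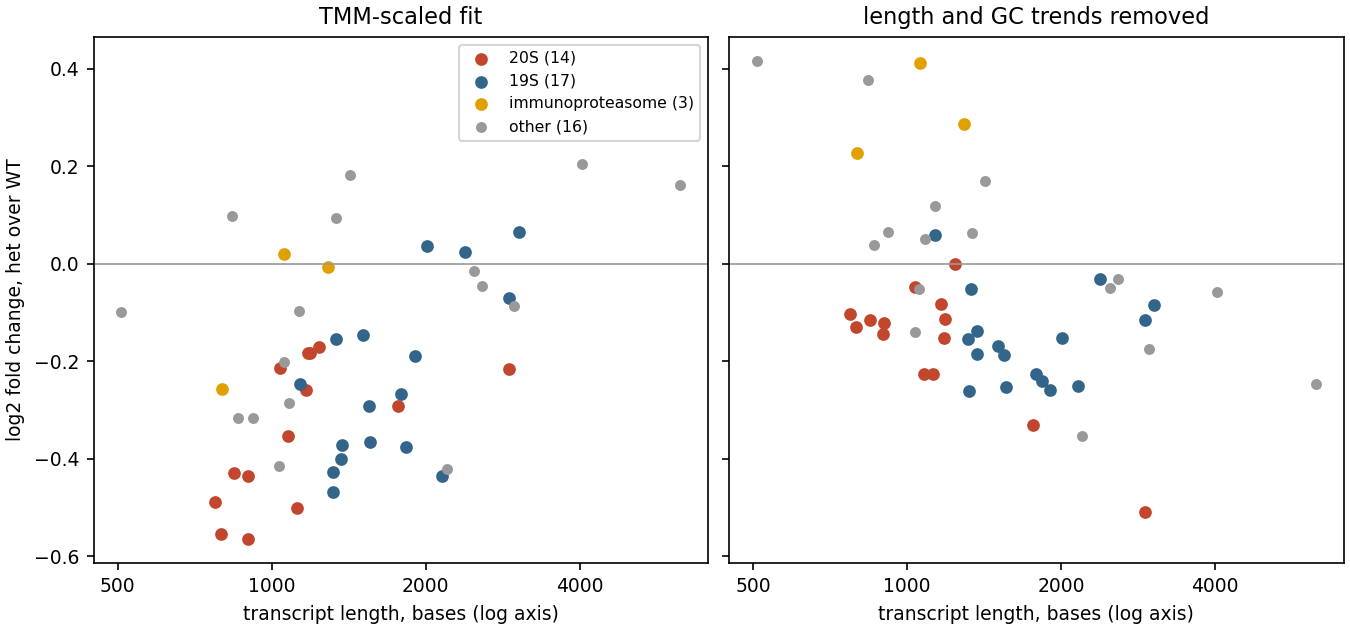
Log2 fold change, het over WT, of each proteasome gene against its transcript length in bases (log axis), coloured by class, in the TMM-scaled fit (left) and with length and GC trends removed (right). On the left short genes lie lower, with a median of -0.27 for the 30 genes under 1400 bases and -0.12 for the 20 longer ones, and on the right the relation has the opposite sign.

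Transcript use was read from the expected counts per transcript. In 35 of the 50 genes the leading transcript held over 90% of the counts, and in 5 it held under 60%. The share of the leading transcript separated the groups in 13 genes, higher in het for 5 and lower for 8. Over all tested genes 11.3% were higher and 10.1% lower by the same rule, so these counts lie near the background. The largest such difference was in Psmf1, where ENSMUST00000042452 held 90.02%, 93.5% and 80.03% in het 5, 6 and 7, against 74.5% and 73.6% in WT 7 and 8. In Psmd4, ENSMUST00000107237 held 59.4%, 51.5% and 49.9% in het, against 63.4% and 59.7% in WT. For both the exact two-sided permutation p was 0.2, the smallest possible. Psmb8 reads were spread over ENSMUST00000173441 (39.2% on average over the 5 libraries), ENSMUST00000236557, annotated as a retained intron (33.6%), and ENSMUST00000025196 (17.9%), with overlapping groups. Exons of 16 members overlap another annotated gene, such as Tap1 beside Psmb9 on the opposite strand and Gm20496 beside Psmb8. The counting's strand setting is not given in the sources used here, so reads of opposite-strand pairs may not be separated. Psmb5, Psmd1, Psme2b and Psmg3 overlap another gene on the same strand, where no strand setting separates the reads.

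The genes around the proteasome were mostly not called. Of 12 proteasome-bound subunits and cofactors with other symbols, 0 were called (median log2 fold change -0.15). Among them the ubiquitin receptor Adrm1, of lowest adjusted p in this list, had 44.7, 42.5 and 51.7 TPM in het, against 55.1 and 57.6 TPM in WT. Its log2 fold change was -0.45 (edgeR adjusted p = 0.0561), and -0.12 with both trends removed. Usp14, Ecpas and Ube3c went the other way, with TPM higher in all het libraries than in WT. Their log2 fold changes were 0.37, 0.24 and 0.30, and 0.11, -0.16 and 0.01 with both trends removed. Of 8 regulators of proteasome genes 0 were called (median 0.04), and Nfe2l1, which encodes NRF1, had 137, 152 and 148 TPM in het, against 154 and 126 TPM in WT. Of 15 genes of ubiquitin supply 1 was higher (Uba6, a ubiquitin-activating enzyme, 0.69), and of 12 heart and muscle ubiquitin ligases 1 was lower (Stub1, the chaperone-linked ligase CHIP, -0.49), where edgeR called 2.99% of all tested genes higher and 2.66% lower. Both shrank once the trends on length and GC were taken out, to 0.19 and -0.15, and neither was then called.

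Markers of cell types were also compared between the groups. The 9 cardiomyocyte markers had a median log2 fold change of -0.45, and summed to 87649, 88127 and 102395 TPM in het 5, 6 and 7, against 115429 and 124928 TPM in WT 7 and 8. Those sums were lower in all het libraries, and Nppa and Myl7 had the highest TPM of the 9 markers. Over all tested genes edgeR called 2.66% lower and 2.99% higher. Myl4 and Nppa, an atrial myosin light chain and the atrial natriuretic peptide, were called lower (log2 fold changes -0.68 and -0.64), and Ryr2, the calcium release channel, higher (0.69). Ttn was also above 0 (0.30, not called), and the rest of the list was below 0. Its level was 52.8, 57.7 and 70.5 TPM in het, against 48.3 and 42.9 TPM in WT. Once the trends on length and GC were taken out, the list's median was -0.17. Myl4, Nppa and Ryr2 then had -0.30, -0.25 and 0.39, and Ttn had 0.81. The 6 fibroblast markers summed to 925, 951 and 932 TPM in het, against 815 and 557 TPM in WT. Most of that was Dcn, at 682, 731 and 616 TPM in het, against 555 and 378 TPM in WT. Lum, a matrix proteoglycan, was called higher (0.50, and 0.30 with both trends removed). Dcn and Pdgfra were above 0 (0.39 and 0.67), and Col1a1, Col3a1 and Tcf21 below (-0.24, -0.13 and -0.05), none of them called. The 4 endothelial markers summed to 324, 379 and 303 TPM in het, against 318 and 437 TPM in WT, with 0 called. No marker of these 3 lists was at 0 in all libraries, and the part of cell makeup in the proteasome values was not tested.

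The authors' deposited table, whose libraries are not listed in it, may include the 5 analysed here and is used as no independent check. Its t values are 0 for every fold under 1.2, so its p-values test against that minimum fold and not against 0, and its limits lie 2.93 SE on either side. It called 0 of 14927 genes at an adjusted p under 0.05 (0.0%), and the smallest adjusted p of a proteasome gene in it was 0.626. In the authors' deposited table the median log2 fold change was -0.05 over the 50 genes and -0.03 over all genes, and 34 of the 50 were below 0 (68.0%, against 55.7% of all genes). The 4 genes called above had -0.28 (Psmb5), 0.009 (Psmb6), -0.16 (Psmb4) and -0.01 (Psmc5) in the authors' deposited table. At an unadjusted p under 0.05 (5.6% of all genes), the authors' deposited table held 2 members, Psme2b (0.75, limits 0.12 to 1.38) and Psmd1 (0.75, limits -0.03 to 1.53). Its confidence limits were above 0 for Psme2b and Psmd11 (4.77% of all genes) and below 0 for 0 members (0.476%).

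**Figure D5:**
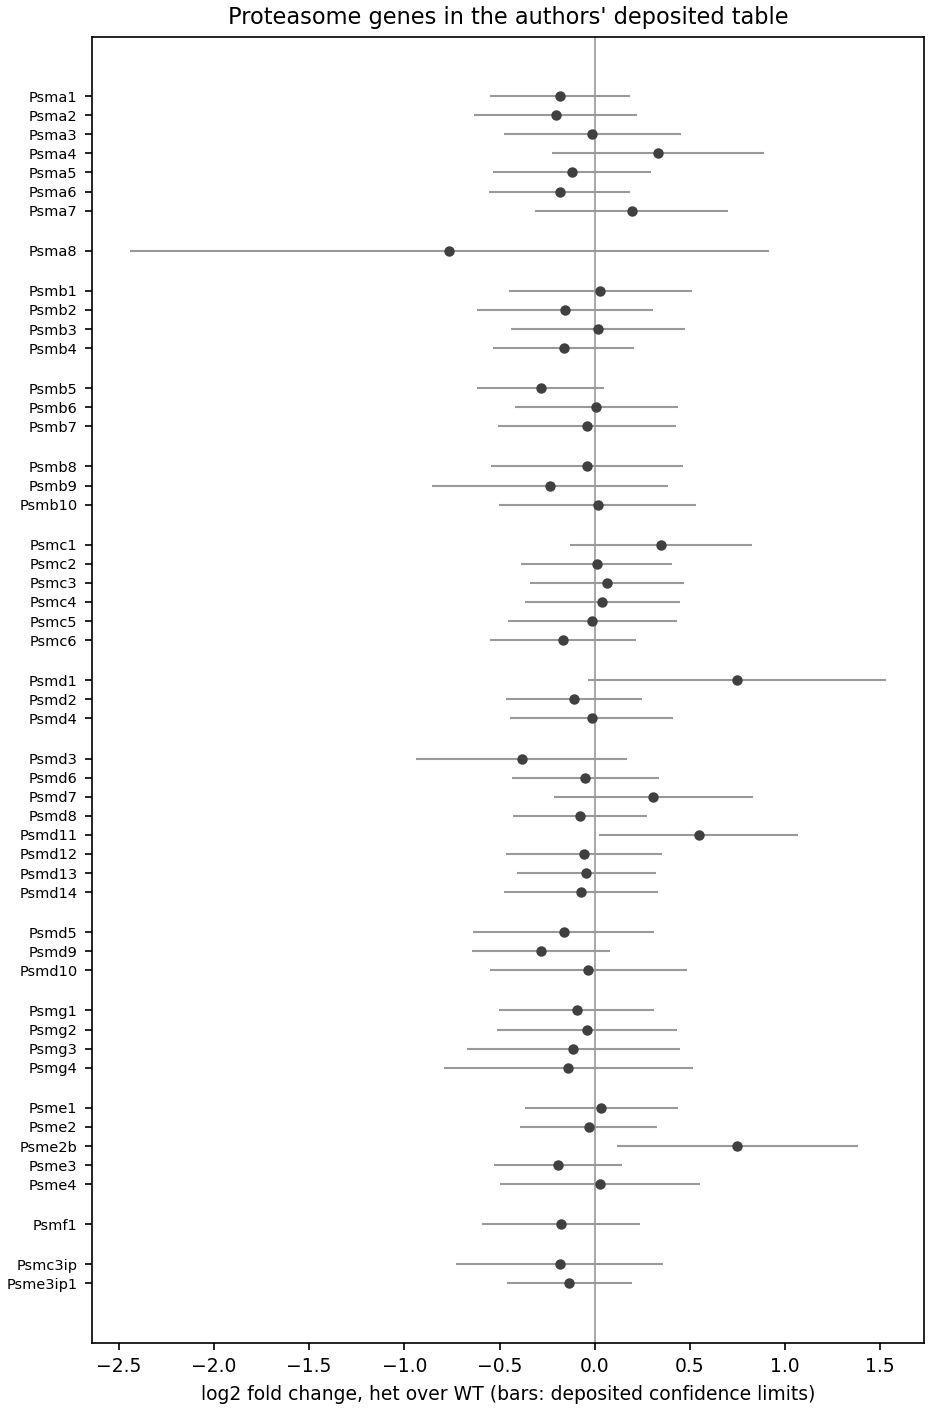
Log2 fold change, het over WT, of each proteasome gene in the authors' deposited table, grouped by role, with the deposited confidence limits as bars. The limits lie above 0 for Psme2b and Psmd11 and below 0 for 0 genes.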

How the data were processed

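RSEM gene and transcript tables gave expected counts, estimated by the authors per the file headers and not normalized, TPM scaled by the authors to effective length and library total, and the isoform percent of each gene as deposited. The authors' deposited comparison gave log2 fold changes with confidence limits, moderated t scores and p-values. Per the submitters' processing notes, the tools included Trim Galore, STAR and RSEM for the reads and limma and edgeR for the comparison, with the build GRCm39 and no versions.

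After rounding of expected counts to integers, 16412 of 57186 genes passed edgeR's filterByExpr, among them all 50 members. TMM scaling and edgeR's robust quasi-likelihood test followed, with Benjamini-Hochberg adjustment over all tested genes and a threshold of 0.05 (biological coefficient of variation 0.18). SEs are the absolute log2 fold change over the square root of F. Alternatives were DESeq2, limma-voom, limma-trend on log2 TPM with a pseudocount of 1 or 0.1, other scalings and filters, length and GC offsets fitted with mgcv (GC known for 98.4% of tested genes) and each library left out. For single values an exact permutation test over 10 splits was used, whose smallest p is 0.2. Library totals ran from 17784601 to 28353091, and precision rests also on the spread between only 3 het and 2 WT libraries.

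Members, lists and tests were chosen with earlier results of these data known. Named were the 6 catalytic genes, called members, the highest and lowest of each role in TPM, and, from the deposited table, the 2 members above 0 and the 2 below 0 of lowest p-value. GENCODE and RefSeq tables are of another build than the files and served for promoters, GC, transcript types and overlaps. In simulated het against WT data with 16015 genes and 200 changed, the test found 71% of the genes changed by 1 and 100% of the genes changed by 2 on the log2 scale, with 11 false among 182 calls. The changed genes were drawn from well-counted genes, and all genes were given the same dispersion. Changes as small as those of the called proteasome genes were not simulated. A simulated length trend gave 84 false among 256 calls, and length offsets brought this to 9 among 178. Tests ran in edgeR 4.0.16, DESeq2 1.42.0, limma 3.58.1 and mgcv 1.9.3 under R 4.3.3, and in scipy 1.17.1 under Python 3.11.15.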

Additional observations from a re-analysis of the deposited data

How the results depend on the processing

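The 4 lower calls among proteasome genes became 9 with upper-quartile scaling, 11 with DESeq2, and 3 with library size alone and in limma-voom, where Psmc5 was lost in both. They became 0 with limma-trend on log2(TPM + 1) or log2(TPM + 0.1), 0 with the length trend removed and 0 with length and GC trends removed. With 1 het library left out they became 0. The fits without WT 7 or WT 8 left 1 WT library, and the log2 fold changes of the 4 genes then lay between -0.59 and -0.42. Over all genes, 490 higher and 436 lower calls became 867 and 780 (DESeq2), 237 and 222 (limma-voom), 4 and 4 (log2(TPM + 1)), 15 and 7 (log2(TPM + 0.1)), 7 and 9 (length trend removed), 4 and 1 (length and GC trends removed), and 1304 and 907 (each gene with a count kept). Scaling moved the balance: 795 genes were higher and 391 lower when scaled by library size alone, against 327 and 568 by upper quartile. With 1 library left out the calls ranged from 0 to 588 higher and from 0 to 290 lower. In each of the fits without WT 7 or WT 8 the remaining WT library was taken to vary as much as het libraries do. Without WT 8 that library was WT 7, which held the Ddx3y counts, so genotype and sex cannot be told apart there.

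The median log2 fold change of the 50 genes, -0.23, was -0.08 on both TPM scales (-0.080 with log2(TPM + 1), -0.084 with log2(TPM + 0.1)), -0.058 with the length trend removed, -0.12 once GC was removed as well and -0.18 when each gene with a count was kept, and ranged from -0.29 to -0.20 with 1 library left out. That of the 20S core, -0.32, was -0.147 and -0.149 on the TPM scales, -0.10 with the length trend removed and -0.13 once GC was removed as well, and ranged from -0.38 to -0.22 with 1 library left out. That of the 19S cap, -0.27, was -0.104 and -0.106 on the TPM scales, -0.15 with the length trend removed and -0.17 with length and GC trends removed. These medians stayed negative in every alternative run. The median of all tested genes shifted to 0.099 with log2(TPM + 1), 0.13 with log2(TPM + 0.1) and -0.14 when each gene with a count was kept.

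Signs of single genes turned as follows. With the length trend removed, Psma6 was 0.066, Psmb10 0.11, Psmb9 0.21, Psmc3 0.0085, Psme2 0.023 and Psmd1 -0.023. With length and GC trends removed, Psmb10 was 0.23, Psmb9 0.29, Psmc3 0.058, Psme2 0.039, Psmg3 0.066, Psmc6 -0.15, Psmd1 -0.085, Psmd11 -0.031 and Psmd5 -0.059. With upper-quartile scaling Psmb8 was -0.027, Psmc6 -0.0054 and Psmd11 -0.019, and Psmb8 was -0.00035 with a mean of at least 1 CPM and -0.074 in limma-voom. Psmb9 was 0.038 with library size alone, 0.043 when each gene with a count was kept and 0.15 on both TPM scales. Psma8 was -0.25 with log2(TPM + 1) and -0.43 with log2(TPM + 0.1). With 1 library left out the values ranged from -0.32 to 0.79 for Psma8, -0.41 to 0.22 for Psmb8, -0.49 to 0.20 for Psmb9, -0.13 to 0.24 for Psmc6, -0.11 to 0.28 for Psmd1, -0.068 to 0.49 for Psmd10, -0.14 to 0.22 for Psmd11 and -0.10 to 0.59 for Psmd5. The share of Psmb10 in its pair was -0.044 percentage points on expected counts and ranged from -2.79 to 3.40 with 1 library left out. Beyond these constructions, the cause of each shift was not tested. No paired analysis was possible because the labels name no pairs of het and WT samples. Depth limits Psma8, at 0.47 to 1.62 TPM, most.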
